A study of Mus musculus with 3 samples.

Results

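Trem2, Tyrobp, Cd33, Clec7a, Syk, Plcg2, Inpp5d and Hcst form a microglial receptor and adaptor pathway together with a Siglec receptor. The 8 genes were chosen by name and were followed across cell populations that were gated on other genes. Of the 31053 genes listed, 7 of the 8 were measured: Clec7a, which encodes the lectin receptor Dectin-1, had no row under its symbol or gene ID and was not analysed here. The series holds single-cell RNA libraries from the hippocampi of mice of the genotype Cx3cr1CreERT2/+; Rosa26tdTomato/+; NestinTK-eGFP/+, in 3 runs that form a single group. All mice carried 1 allele of a tamoxifen-inducible Cre at Cx3cr1, a gene active in microglia, in other brain macrophages and in some blood leukocytes, beside a Cre-dependent tdTomato reporter and the NestinTK-eGFP transgene. Tamoxifen was given at 100 mg/kg for 4 days in a row, and tdTomato+ cells from both hippocampi were sorted after perfusion with PBS. The 12 animals, 6 male and 6 female, are not assigned to runs and their age is not given in the sources used here. The comparisons were therefore between populations within the runs. Their p-values rest on the spread between the 3 runs, which may be technical. That spread was estimated mainly from many genes together, so a small p-value does not show that a gene's own runs were alike.

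TREM2 is a cell-surface receptor for lipids, lipoproteins and cell debris and has no signalling tail of its own. It pairs with TYROBP (DAP12), whose ITAM motif is phosphorylated and recruits the kinase SYK, which acts through phospholipase C gamma 2 (Plcg2) and phosphoinositide 3-kinase. HCST (DAP10) is a second adaptor of the same family that recruits phosphoinositide 3-kinase. CD33 is a sialic-acid-binding receptor of the Siglec family; the human protein is inhibitory, while the mouse protein has a different tail and membrane segment. INPP5D (SHIP1) is a phosphatase that removes the product of phosphoinositide 3-kinase. In microglia the pathway is known for its part in phagocytosis and in the response to damaged tissue, and several of these genes carry risk variants for Alzheimer's disease in humans.

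After filters on depth and mitochondrial share, 6993, 6720 and 6078 cells remained in runs 1, 2 and 3, with medians of 4425, 3438 and 3696 UMIs per cell (a UMI is a counted RNA molecule). Ordinary microglia, which had UMIs of at least 3 of 10 microglia markers and met no other gate, numbered 6445, 6399 and 5525 cells. The 10 markers, among them P2ry12 and Tmem119, summed to between 31551 and 43345 CPM in these cells (CPM are a gene's UMIs over all UMIs of the summed population, scaled to counts per 1e6). The other populations were small and are given as cells in runs 1, 2 and 3. Border macrophages, with markers such as Mrc1, Pf4 and Lyve1, numbered 47, 23 and 45, and cells rich in MHC class II transcripts 13, 16 and 18. Microglia with lipid and phagocyte genes such as Spp1, Lpl and Itgax numbered 46, 35 and 25. Microglia rich in the chemokines Ccl3 and Ccl4 numbered 23, 34 and 45, interferon-responsive cells 95, 53 and 55, and cycling cells 27, 10 and 15. A group defined by Emp3, Fxyd5 and Tnfsf13b held 23, 11 and 16 cells, and cells carrying astrocyte transcripts 165, 79 and 33. Cells above the MHC class II minimum that met the border macrophage gate were counted as border macrophages, and chemokine-rich cells that met the lipid and phagocyte gate were counted there. Cells that met more than 1 gate after these rules (82, 34 and 44) were left out. No doublet caller was run, and 3.39%, 1.68% and 2.85% of the cells of runs 1, 2 and 3 held UMIs of both Xist and Y-linked genes. Run 3 stood apart in immediate early genes: Fos, Egr1, Nr4a1 and Ier2 summed to 319 CPM in its ordinary microglia against 12.2 and 19.5 CPM in runs 1 and 2. Between 7 and 8 cell barcodes were shared by each pair of runs.

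Trem2 and Tyrobp, the receptor and its ITAM adaptor, were found in nearly every ordinary microglial cell. Trem2 stood at 2761, 2802 and 2586 CPM in runs 1, 2 and 3 (mean 2716 ± 115, SD, n = 3), and Tyrobp at 2697.5, 3153 and 2642 CPM (2831 ± 280). With each cell thinned to 2000 UMIs, so that depth was equal, 99.1% ± 0.236 of ordinary microglia had a Trem2 UMI and 99.2% ± 0.187 a Tyrobp UMI (SD, n = 3). The median thinned cell held 5 Trem2 UMIs in every run, with 2 at the 10th and 9 at the 90th percentile. Both genes were thus carried by the whole population and not by a subset of cells.

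Cd33 and Inpp5d were counted in a smaller share of cells. Cd33 was at 367, 341 and 418 CPM (375 ± 39.0), and 51.0% ± 3.21 of thinned cells had a UMI. Inpp5d was at 632, 424 and 580 CPM (545 ± 109), and run 2 lay below the other runs; no Inpp5d UMI was counted in 29.4%, 43.9% and 31.8% of thinned cells. The kinase gene Syk, at 92.9, 63.6 and 102 CPM (86.3 ± 20.2), was also lowest in run 2. Plcg2 was at 77.9, 71.4 and 71.1 CPM (73.5 ± 3.81) and the second adaptor Hcst at 44.9, 47.4 and 48.4 CPM (46.9 ± 1.81), so these varied little between runs. A UMI of Syk was present in 15.6% ± 3.19, of Plcg2 in 13.3% ± 0.787 and of Hcst in 8.71% ± 0.198 of thinned cells. Choroid plexus cells, an epithelium outside the pathway, had medians of 2417, 2209 and 2124 UMIs per cell, against 4378, 3419 and 3650 in ordinary microglia. They are no clean background, since their microglia markers summed to 11605, 4003 and 942 CPM and their choroid plexus markers to 2333, 2906 and 2354 CPM. In their 10, 9 and 1 thinned cells the mean shares were 24.1% for Trem2 and for Tyrobp, 17.4% for Cd33, 10.4% for Inpp5d, and 3.33% for Plcg2 and for Hcst, each below the share in ordinary microglia. No Syk UMI was counted in these few cells, and no background was set from them.

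The genes lie on separate chromosomes except for Tyrobp, Hcst and Cd33. In GENCODE M21 on GRCm38, Tyrobp occupies chr7:30413760-30417585 on the plus strand and Hcst chr7:30417712-30419854 on the minus strand, so that the 2 adaptor genes lie tail to tail with 126 bases between their annotated ends. Since counting from the 3′ end reads just these ends and the strand setting is not given in the sources used here, some reads of the abundant Tyrobp could have been assigned to Hcst. Whether this occurred was not tested. The UMI ratio of Hcst to Tyrobp was 0.0166, 0.0150 and 0.0183 in ordinary microglia of runs 1, 2 and 3. In the smaller populations it rested on fewer UMIs and varied more between runs. It was 0.0120, 0.0050 and 0.0148 in lipid and phagocyte cells and 0.0144, 0.008 and 0.0319 in MHC class II-high cells. Trem2 lies at chr17:48346401-48354147 (plus strand), Inpp5d at chr1:87620312-87720507 (plus), Cd33 at chr7:43524216-43544428 (minus), Syk at chr13:52583173-52648792 (plus) and Plcg2 at chr8:117498291-117635142 (plus). Values cover whole genes, and no exon or isoform was separated.

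The promoters of Trem2, Cd33 and Inpp5d are shown because they passed the test in at least 3 of the populations below, as did Tyrobp, which had no entry in the promoter table; the 3 were chosen after their values were seen. Each sequence is the 250 bases before the RefSeq start in GRCm38.p6, 5′ to 3′ on the strand of the gene, and the capitals mark the letters GAGGAA, searched on both strands (TTCCTC is the same motif on the other strand). GAGGAA is part of the site bound by PU.1, a transcription factor of macrophages and microglia. Each of the 3 holds it 1 time, as do 23.3% of all 32851 promoters of this length at least 1 time, and a match is a description of the letters only.
Trem2, chr17:48346151-48346400, plus strand: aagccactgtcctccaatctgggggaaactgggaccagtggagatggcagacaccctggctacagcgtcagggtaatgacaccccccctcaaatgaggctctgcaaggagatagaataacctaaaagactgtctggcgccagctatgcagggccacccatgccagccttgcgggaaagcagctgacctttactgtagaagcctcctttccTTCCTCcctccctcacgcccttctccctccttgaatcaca
Cd33, chr7:43533172-43533421, minus strand: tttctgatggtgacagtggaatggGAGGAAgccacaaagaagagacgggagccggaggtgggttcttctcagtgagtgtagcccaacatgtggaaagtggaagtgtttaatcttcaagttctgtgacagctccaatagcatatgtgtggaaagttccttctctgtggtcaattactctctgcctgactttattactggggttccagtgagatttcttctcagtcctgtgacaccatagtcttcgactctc
Inpp5d, chr1:87620062-87620311, plus strand: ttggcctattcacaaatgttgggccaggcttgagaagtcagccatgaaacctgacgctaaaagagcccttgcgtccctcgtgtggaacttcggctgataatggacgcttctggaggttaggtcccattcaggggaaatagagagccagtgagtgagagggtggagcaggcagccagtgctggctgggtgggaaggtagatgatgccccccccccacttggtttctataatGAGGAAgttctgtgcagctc
The RefSeq start of Cd33 lies inside the longer GENCODE interval. Of the other measured members, Syk had the motif at 1 of its 2 listed starts, and Plcg2 and Hcst did not have these letters in this window.

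Across the 9 populations with at least 10 cells in every run, Trem2 ranged from 3300 ± 32.9 CPM in lipid and phagocyte microglia to 1305 ± 641 CPM in MHC class II-high cells (SD, n = 3). In that order the lipid and phagocyte cells did not overlap with the next population, and cycling cells, border macrophages and MHC class II-high cells, which overlapped one another, lay below the other 6 populations. Tyrobp ran from 3949 ± 168 CPM in lipid and phagocyte microglia to 1729 ± 57.5 CPM in cycling cells, and each population overlapped with its neighbour in the order. For Cd33 and Inpp5d, ordinary microglia were at the top of the order. Cd33 was lowest in cycling cells (147 ± 19.9 CPM) and Inpp5d in MHC class II-high cells (275 ± 60.4 CPM). Syk, Plcg2 and Hcst rested on 0 to 102 UMIs per run in the 8 smaller populations, and all neighbours in their orders overlapped.

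**Figure D1:**
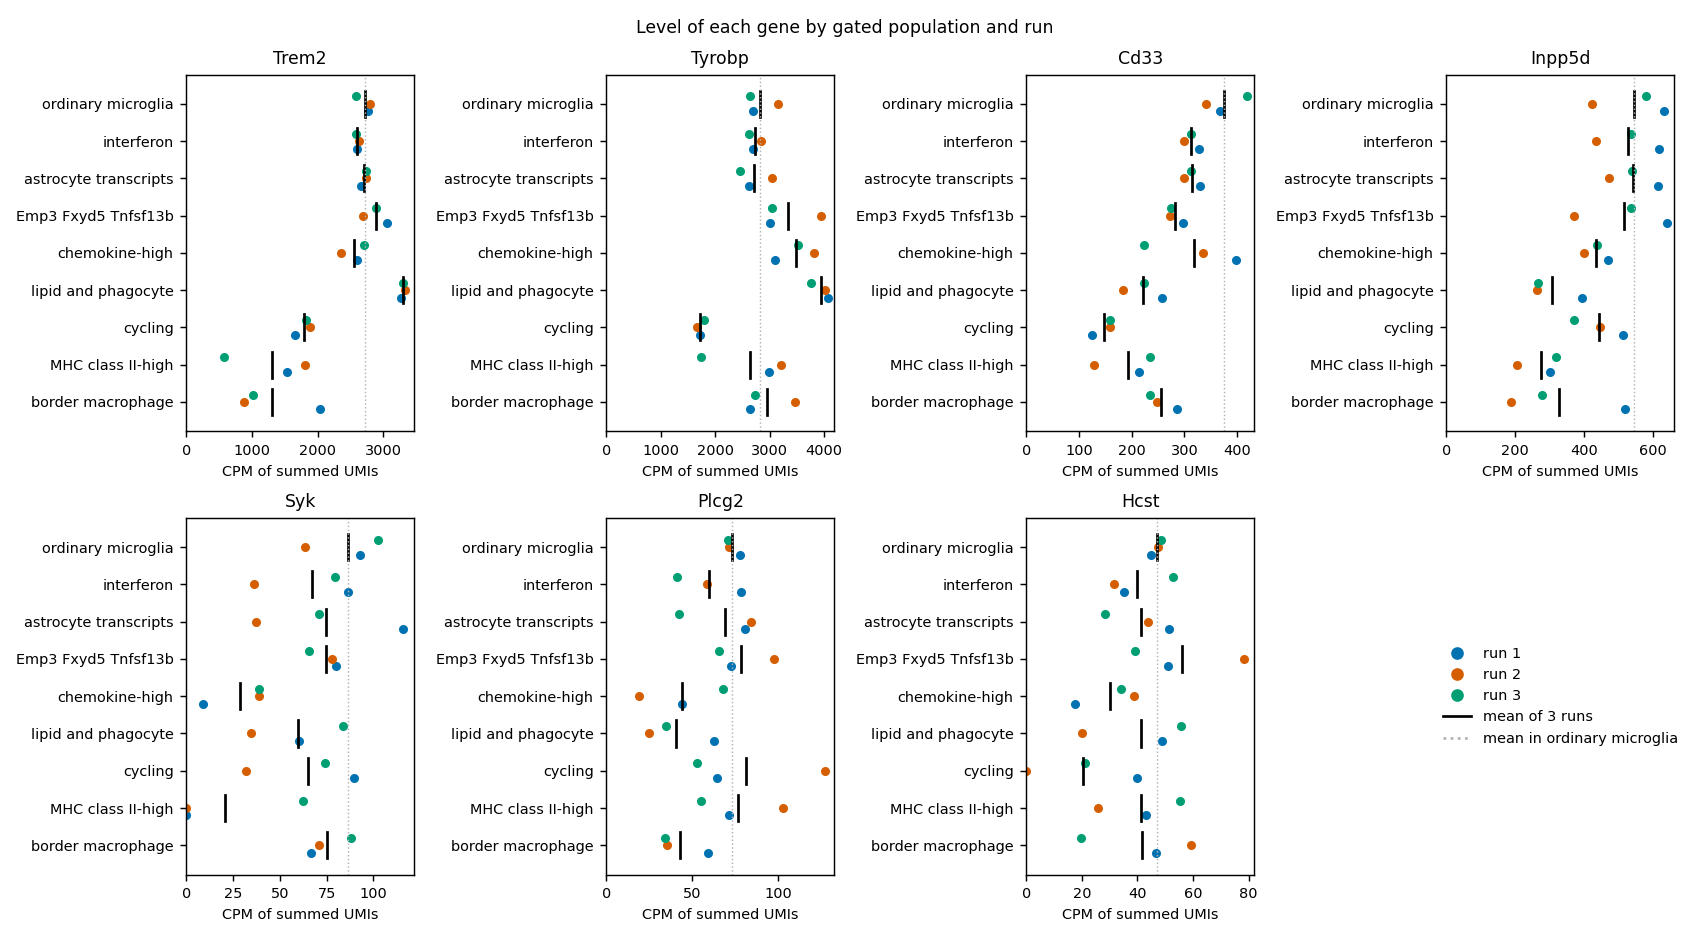
Level of each of the 7 measured genes (x axis, CPM of summed UMIs) in ordinary microglia and 8 smaller gated populations (y axis). Points are the 3 runs, black bars their mean, and the dotted line the mean in ordinary microglia. Trem2 of the lipid and phagocyte cells sits between 3268 and 3334 CPM, above every run of ordinary microglia, while Cd33 and Inpp5d of the same cells lie below every run of ordinary microglia.

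In the lipid and phagocyte microglia Trem2 and Tyrobp were higher, and Cd33 and Inpp5d lower, than in ordinary microglia. Tyrobp was at 4069.6, 4021 and 3757 CPM against 2697.5, 3153 and 2642, without overlap, and it rose by 0.52 ± 0.08 (log2, SE, 95% interval 0.37 to 0.67). Trem2 was at 3268, 3334 and 3297 CPM against 2761, 2802 and 2586, again without overlap, and rose by 0.31 ± 0.08 (0.16 to 0.47). Cd33 fell to 258, 184 and 223 CPM from 367, 341 and 418, all 3 runs lying below the ordinary microglia. Its change was -0.68 ± 0.13 (-0.94 to -0.41). Inpp5d was at 395, 264 and 265 CPM against 632, 424 and 580, also without overlap, and its change was -0.75 ± 0.12 (-0.99 to -0.51). The adjusted p-values were 1.11e-09 for Tyrobp, 0.00100 for Trem2, 1.42e-05 for Cd33 and 2.5e-08 for Inpp5d (edgeR's quasi-likelihood test on summed counts with the run as a block, Benjamini-Hochberg over all 11121 genes tested). The same test called 13.3% of all genes, 6.56% higher and 6.79% lower, against 4 of the 7 members, 2 in each direction; the median log2 change was -0.54 over the 7 members and -0.10 over all genes.

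Syk and Plcg2, the kinase and the phospholipase that carry the signal onward, had lower values that did not pass the threshold: Syk -0.54 ± 0.24 (adjusted p = 0.12) and Plcg2 -0.67 ± 0.26 (adjusted p = 0.065, edgeR). Hcst was at 48.7, 19.9 and 55.8 CPM around the level of ordinary microglia, with a change of -0.11 and an interval of -0.68 to 0.45. Without run 1 the Plcg2 change was -1.27 and passed. The calls of Cd33 and Inpp5d were kept under all 12 alternatives run. Those of Trem2 and Tyrobp were lost under 3 of 12: without the replicate block (log2 change 0.31 and 0.51), with a stricter cell filter (0.22 and 0.34) and with cells of several gates kept (0.09 and 0.40). Lipid and phagocyte cells were deeper, with medians of 6158, 5517 and 5381 UMIs, and their median mitochondrial share was 4.13%, 3.31% and 4.02% against 2.57%, 2.09% and 2.56% in ordinary microglia. The part of the mitochondrial share in these results was not tested beyond the stricter filter, which allows at most 5%. Their 10 microglia markers, none at 0, summed to between 20534 and 28205 CPM. Against ordinary microglia matched on UMIs per cell, which was added after the data were seen, the changes were 0.34 for Trem2, 0.53 for Tyrobp, -0.67 for Cd33 and -0.68 for Inpp5d.

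**Figure D2:**
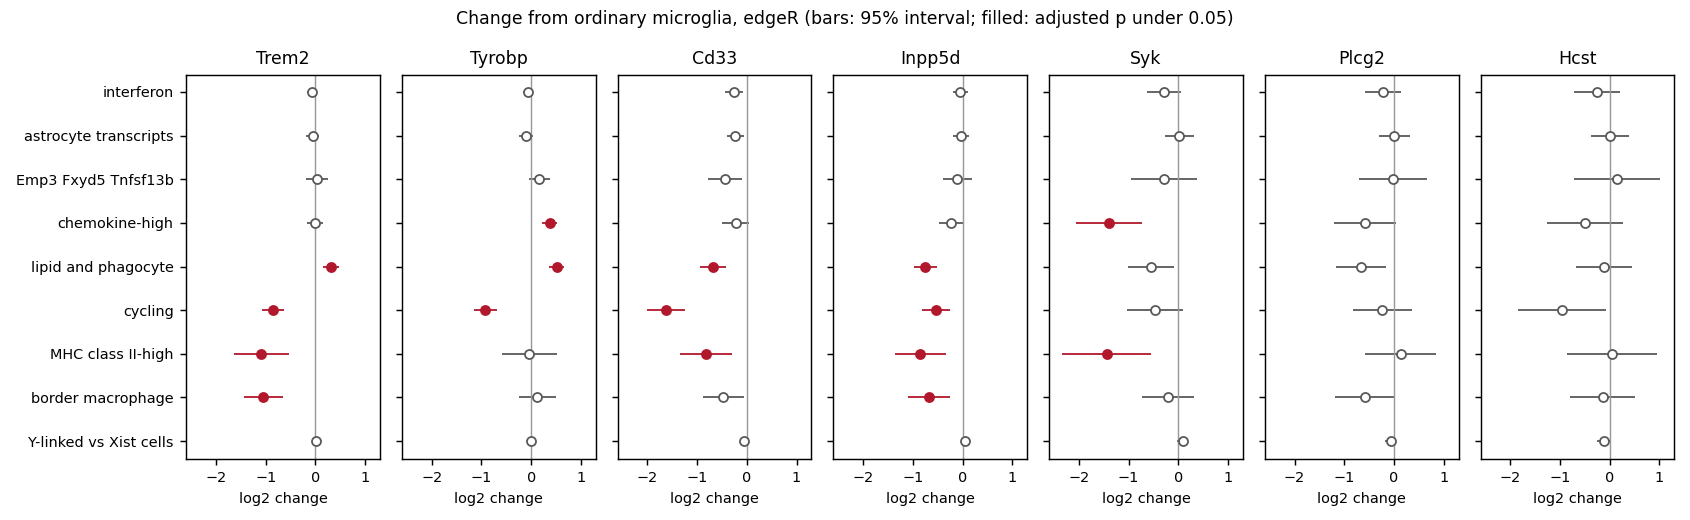
Change of each gene from ordinary microglia (x axis, log2) in 8 populations and, in the bottom row, in microglia with Y-linked transcripts against those with Xist. Bars are 95% intervals of edgeR's quasi-likelihood test, and filled points passed an adjusted p of 0.05. In the lipid and phagocyte row Trem2 and Tyrobp lie to the right of 0 and Cd33 and Inpp5d to the left, whereas the 4 filled points of the cycling row all lie to the left.

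Other genes of the pathway were read from lists written with earlier results of these data known, so the counts describe and support nothing. In the lipid and phagocyte cells all 6 tested of 8 further Siglec genes passed, 2 higher and 4 lower. Siglech, a microglial Siglec that itself couples to TYROBP, fell from 1799, 1544 and 1805 CPM to 1002, 657 and 537 CPM (log2 change -1.15 ± 0.10, adjusted p = 4.14e-31, edgeR). The inhibitory receptor Siglece was at 28.6, 34.8 and 13.9 CPM against 71.8, 92.8 and 68.1 CPM, a change of -1.46. Cd22, another inhibitory Siglec, was higher by 2.73 from 2.54 CPM in ordinary microglia, and Siglecf was higher by 1.04. Mag and Siglecg were lower with adjusted p-values of 0.045 and 0.049 (edgeR), from 9 and 2 UMIs in the lipid and phagocyte cells.

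Of 16 other receptors and ITAM adaptors, 8 were tested and 2 were higher there. Fcer1g, the Fc receptor gamma chain and the other main ITAM adaptor of macrophages, was at 2725, 2911 and 2677 CPM against 2322, 2844 and 2195, which overlap, with a change of 0.22 ± 0.08 (adjusted p = 0.049, edgeR). Cd300lb was higher by 3.94, from 10 UMIs. Among 27 tested of 28 signalling genes below Syk, 2 were higher and 7 lower. The adaptor Lat2 rose to 226, 259 and 265 CPM from 136, 157 and 136 (0.83 ± 0.15, adjusted p = 5.67e-07, edgeR), and the Src-family kinase Fgr was higher by 3.74. On the lower side stood Nfatc1 (-1.66), the phosphoinositide 3-kinase subunits Pik3cg (-1.12) and Pik3r1 (-0.87), and the calcium channel Itpr2 (-0.73). Inhibitors of ITAM signalling had 4 lower and 0 higher of 10 tested, among them the adaptor Dok3 (-1.45), the phosphatase Ubash3b (-1.005) and the kinase Csk (-0.80). The median log2 change was -1.20 over the Siglec list, 0.13 over the receptors and adaptors, -0.29 over the signalling genes and -0.46 over the inhibitors, beside -0.10 over all genes. Apoe, a lipoprotein that TREM2 binds, was higher by 3.13 ± 0.08, at 4453, 6917 and 7549 CPM against 641, 839 and 685.

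In cycling microglia Trem2, Tyrobp and Cd33 were lower in each run. Inpp5d was called lower as well, but by CPM it lay above ordinary microglia in run 2. Tyrobp was at 1727, 1673 and 1788 CPM, Trem2 at 1653, 1879.7 and 1829.9 CPM, and Cd33 at 125, 159 and 159 CPM, each below every run of ordinary microglia. The log2 changes were -0.92 ± 0.12 for Tyrobp (95% interval -1.15 to -0.70), -0.85 ± 0.12 for Trem2 (-1.08 to -0.62) and -1.63 ± 0.20 for Cd33 (-2.02 to -1.25). Inpp5d was at 513, 446 and 370 CPM against 632, 424 and 580 in ordinary microglia, which overlap. Its estimated fall was 0.53 on the log2 scale with a standard error of 0.14. Adjusted p-values were 7.95e-14, 8.11e-12, 5.31e-15 and 0.0024 in the order Tyrobp, Trem2, Cd33 and Inpp5d (edgeR's quasi-likelihood test). The background was 16.7% of 11155 genes called, 8.16% higher and 8.53% lower, against 4 of 7 members, all lower, and the medians were -0.85 over the members and -0.21 over all genes. The sums rest on 27, 10 and 15 cells with medians of 6928, 6582 and 6192 UMIs, deeper than ordinary microglia (4378, 3419 and 3650), and their median mitochondrial share was 3.44%, 3.13% and 3.07%.

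The falls of Tyrobp, Trem2 and Cd33 in cycling cells were kept under all 11 alternatives run, with log2 changes from -1.02 to -0.69, -1.01 to -0.62 and -1.78 to -1.42. Inpp5d lost its call under 5 of 11, among them without run 3 (-0.39) and with no scaling factors (-0.32). That scaling choice moved the median of all genes by 0.21 and the split of called genes from 910 higher and 952 lower to 1163 higher and 520 lower. Hcst had 8, 0 and 2 UMIs in the 3 runs, Syk 18, 2 and 7, and Plcg2 13, 8 and 5, and none of these passed. Of the other lists, Siglech (-0.92), Sirpa (-0.83) and Fcer1g (-0.66) were lower. Sirpa encodes an inhibitory receptor of phagocytes. Of 27 signalling genes 6 were lower and 0 higher, among them Bcl10 (-1.30), the kinase Prkcd (-0.995) and the adaptor Blnk (-0.75). Of 10 inhibitors 3 were lower, among them Dok1 (-1.005) and Ubash3b (-0.54), and Siglecg was higher by 1.46, from 16 UMIs. Apoe, in contrast to its level in lipid and phagocyte cells, was at 398, 303 and 95.2 CPM, a change of -1.48 ± 0.16; with cells of several gates kept it was 0.19 and not called.

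**Figure D3:**
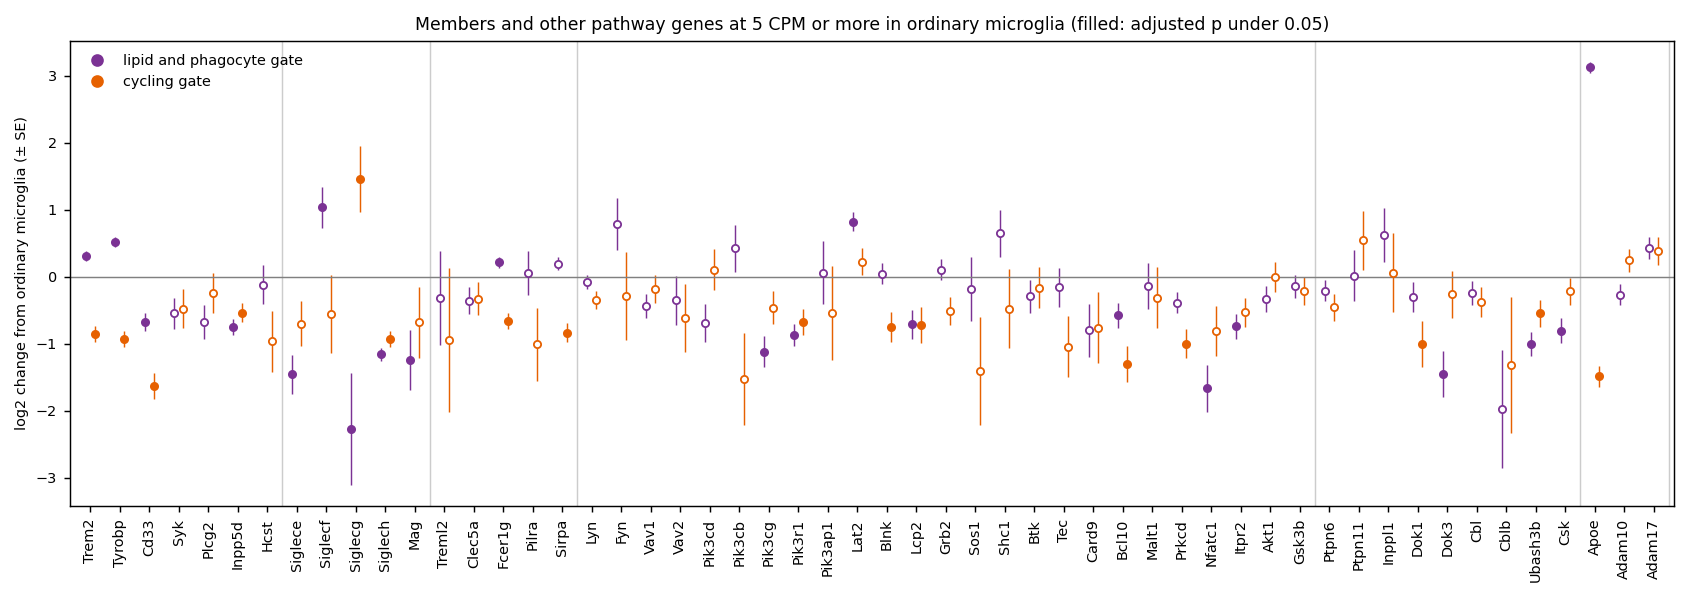
Log2 change from ordinary microglia (y axis, ± SE) of the 7 measured genes and of other pathway genes at 5 CPM or more in ordinary microglia (x axis), in lipid and phagocyte cells (purple) and cycling cells (orange). Grey lines divide, from left, the members, other Siglec genes, receptors and adaptors, signalling genes, inhibitors, and ligands with shedding proteases, and filled points passed an adjusted p of 0.05. Trem2 and Tyrobp are above 0 in purple and below 0 in orange, Siglech is below 0 in both, and Apoe is at 3.13 and -1.48.

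Border macrophages, the resident macrophages of meninges and vessels, had less Trem2 than ordinary microglia, while Tyrobp did not pass the test. Trem2 was at 2030.0, 886 and 1011 CPM in runs 1, 2 and 3 against 2761, 2802 and 2586, without overlap, and changed by -1.05 ± 0.20 (log2, 95% interval -1.44 to -0.65, adjusted p = 5.9e-06, edgeR). Tyrobp was at 2648, 3474 and 2741 CPM, which overlaps, with a change of 0.12 and an interval of -0.25 to 0.50. Inpp5d was at 517, 189 and 278 CPM, run 1 overlapping with ordinary microglia, and changed by -0.68 ± 0.21 (adjusted p = 0.020, edgeR). Cd33 was at 286, 248 and 235 CPM, below every run of ordinary microglia, but its change of -0.47 did not pass (adjusted p = 0.19, edgeR). Syk, Plcg2 and Hcst did not pass either. The background was 9.03% of 11220 genes called, 5.47% higher and 3.56% lower, against 2 of 7 members, both lower, and the medians were -0.47 and -0.14.

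Marker transcripts differed between runs in these cells. MHC class II transcripts, which the gate did not use, summed to 8812, 19293 and 15510 CPM against 34.7, 39.8 and 41.6 CPM in ordinary microglia. The 10 microglia markers, none at 0, summed to 19615, 10940 and 7069 CPM in the border macrophages, against 31551, 43345 and 33245 CPM in ordinary microglia, and 25.5%, 0% and 4.44% of them held both kinds of sex-linked UMIs. In the 13, 17 and 34 border macrophages with at most 1 of P2ry12, Tmem119, Sparc and Sall1, the changes were -1.88 for Trem2, -1.51 for Inpp5d and -1.30 for Cd33, all called, and 0.05 for Tyrobp. For this subset 1333 of 11043 genes were called, 551 higher and 782 lower, with a median of -0.43 over all genes. These cells were picked for few microglia transcripts and the reference was not. The part of that choice in the changes was not tested. Among all border macrophages the Trem2 call was lost without run 2 (-0.77) and without run 3 (-0.97). Inpp5d lost its call under 6 of 15 alternatives, among them without run 2 (-0.53) and without run 3 (-0.55). Among the other Siglec genes, 7 tested, Siglec1 (CD169), a sialic acid receptor of tissue macrophages, was higher at 24.6, 23.6 and 73.3 CPM against under 1 CPM, while Siglech was lower (-1.57 ± 0.21). The receptor Clec4n (Dectin-2) was higher by 10.7 from 81 UMIs, the exchange factor Vav3 by 9.41 from 25 UMIs and the inhibitory adaptor Dok2 by 6.18 from 23 UMIs. Lat2 (-1.22), Itpr2 (-1.11), Blnk (-0.87), Pik3r1 (-0.76), Sirpa (-0.68) and Adam10 (-0.70), a protease that sheds TREM2, were lower. Pilrb2 was higher by 5.34 from 5 UMIs, and Apoe by 5.70 ± 0.25.

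Cells rich in MHC class II transcripts that did not meet the border macrophage gate also had lower Trem2, with less certainty. Cycling cells, which had lower Trem2 as well, held 79.7, 31.9 and 127 CPM of MHC class II transcripts. A link of these transcripts to Trem2 was not tested. Border macrophages were rich in them, and in the MHC class II-high cells they summed to 17503, 39662 and 44328 CPM. Trem2 was at 1530.1, 1802 and 582 CPM, below every run of ordinary microglia, and changed by -1.09 ± 0.28 (log2, adjusted p = 0.0028, edgeR), while Tyrobp, at 2989, 3218 and 1738 CPM, changed by -0.03 with an interval of -0.59 to 0.52. After thinning, 8 of 13, 9 of 13 and 9 of 18 of these cells had a Trem2 UMI in runs 1, 2 and 3, and 98.1% ± 3.21 a Tyrobp UMI. Inpp5d was at 300, 206 and 319 CPM (-0.85 ± 0.26, adjusted p = 0.019) and Cd33 at 215, 129 and 235 CPM (-0.82 ± 0.27, adjusted p = 0.032, edgeR), both below every run of ordinary microglia. Syk passed at -1.44 but rests on 9 UMIs, all of run 3. The 4 of 7 members called, all lower, stand beside 7.12% of 11034 genes called, 3.94% higher and 3.18% lower, with medians of -0.82 and -0.28. All 4 calls were lost without run 1 and without run 2, with Trem2 at -1.23 and -1.34, and without the replicate block, with Trem2 at -1.003. Those of Inpp5d, Cd33 and Syk were also lost with DESeq2's size factors, with the DESeq2 Wald test and against the reference matched on UMIs. Of 13 alternatives, Trem2 kept its call under 10, Inpp5d under 7, Cd33 under 6 and Syk under 6. The microglia markers summed to 16388, 19606 and 6972 CPM and the monocyte markers to 400, 644 and 1295 CPM in runs 1, 2 and 3, against 7.61, 6.25 and 8.09 CPM in ordinary microglia, with Ly6c2, Chil3 and Vcan at 0 in each run; their part in the result was not tested. With DESeq2's size factors the called genes were 499 higher and 242 lower, and with no scaling factors 407 and 500, against 435 and 351. Siglech (-1.25), Sirpa (-1.24), Blnk (-1.18), Pik3r1 (-1.05) and Adam10 (-1.04) were lower among the other lists, and Dok2 (5.92, from 10 UMIs), the kinase Fgr (3.90, from 15 UMIs) and Apoe (3.25) were higher.

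**Figure D4:**
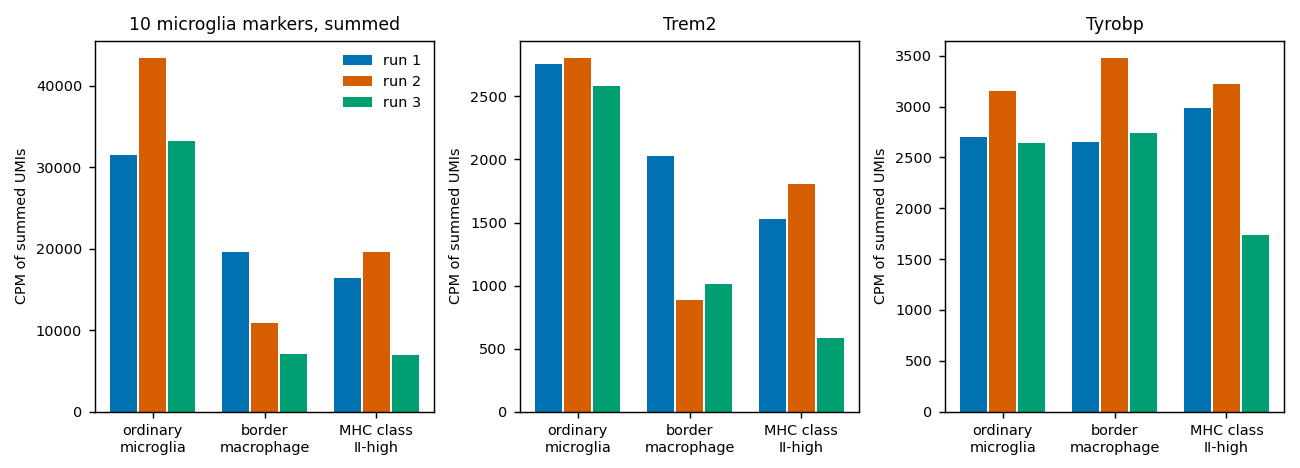
CPM of summed UMIs (y axis, from 0) in each run for the 10 microglia markers summed, for Trem2 and for Tyrobp, in ordinary microglia, border macrophages and MHC class II-high cells. Bars are single runs. Among the border macrophages run 1 has the most microglia markers (19615 CPM) and the most Trem2 (2030.0 CPM), and Tyrobp overlaps with ordinary microglia in both populations.

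The UMI ratio of Trem2 to Tyrobp, which does not depend on library scaling, was 1.02, 0.889 and 0.979 in ordinary microglia of runs 1, 2 and 3. It was 0.803, 0.829 and 0.878 in lipid and phagocyte cells, below ordinary microglia without overlap, so the adaptor was the more raised of the pair there. Chemokine-high cells had 0.835, 0.619 and 0.771, also below ordinary microglia without overlap. Border macrophages had 0.767, 0.255 and 0.369 and MHC class II-high cells 0.512, 0.560 and 0.335. In cycling cells, where both genes fell, the ratio was 0.957, 1.12 and 1.02. The ratio of Inpp5d to Tyrobp fell from 0.234, 0.134 and 0.220 in ordinary microglia to 0.0970, 0.0656 and 0.0705 in lipid and phagocyte cells. These ratios are descriptions and were not tested.

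Chemokine-high microglia had more Tyrobp, and Trem2 did not pass the test. Tyrobp was at 3107, 3810 and 3520 CPM (0.38 ± 0.08, log2, adjusted p = 4.8e-05, edgeR), which overlaps with the 2642 to 3153 CPM of ordinary microglia through run 1 alone. Trem2 was at 2595, 2359 and 2713 CPM, with a change of -0.01 and an interval of -0.16 to 0.15. Syk was lower at 8.8, 38.7 and 38.9 CPM (-1.39 ± 0.34, adjusted p = 0.0015, edgeR), from 15 UMIs and below every run of ordinary microglia. Against these 2 called members stands a background of 6.16% of 11027 genes, 3.64% higher and 2.52% lower; with no scaling factors the split of called genes went from 401 higher and 278 lower to 347 and 370. The Tyrobp call was lost without the replicate block (0.37) and on thinned cells (0.20), and the Syk call without the block (-1.38), without run 1 (-1.06) and with the DESeq2 Wald test (-1.37). Siglech (-0.38) was lower, and Pik3r1 (0.47) and Apoe (1.40) were higher.

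No member passed the test in the interferon, Emp3, astrocyte-transcript and sex-linked comparisons (edgeR's quasi-likelihood test). In the interferon comparison 1.87% of 11194 genes were called, 1.63% higher and 0.232% lower. In the Emp3 group it was 0.638% of 10978 genes, 0.401% higher and 0.237% lower. With astrocyte transcripts it was 0.736% of 11272 genes, 0.71% higher and 0.0266% lower. In the sex-linked comparison it was 0.886% of 11178 genes, 0.483% higher and 0.403% lower. At an unadjusted p under 0.05 (edgeR) the first 3 had 1 of 7 members each, Cd33, and the sex-linked comparison had 0. Among all genes, 983 of 11194, 782 of 10978, 586 of 11272 and 1138 of 11178 were under this limit, in the same order. The DESeq2 Wald test called 0 members in all 4, with 3 members of the Emp3 group given no adjusted p. Cd33 was at 328, 299 and 313 CPM in interferon-responsive cells (-0.25, 95% interval -0.43 to -0.07, adjusted p = 0.22) and at 298, 273 and 275 CPM in the Emp3 group (-0.44, adjusted p = 0.44, edgeR). The 95% intervals of the Trem2 change were -0.17 to 0.03 in interferon-responsive cells and -0.19 to 0.08 in cells with astrocyte transcripts. With cells of several gates kept, the interferon group grew to 141, 79 and 80 cells, the added ones meeting another gate as well. It then had Trem2 at -0.33, Cd33 at -0.34 and Inpp5d at -0.29, all called. Under that setting 1417 of 11465 genes were called, 926 higher and 491 lower. The part of the other gates in these changes was not tested. Of the other lists, Sirpa (-0.25, adjusted p = 0.017) and Ubash3b (-0.40, adjusted p = 0.049, edgeR) were called lower in interferon-responsive cells, Ubash3b with run 2 the other way. Lat2 was higher in the Emp3 group (0.75, adjusted p = 0.0497, edgeR). Apoe was higher in the Emp3 group by 2.03 and in cells with astrocyte transcripts by 0.46. In the latter Clu, another lipoprotein that binds TREM2, was higher by 4.14, from 2.78 CPM in ordinary microglia. Those cells were gated on astrocyte transcripts, and whether their Apoe and Clu came from astrocyte RNA was not tested. Apoe was also called higher in interferon-responsive cells (0.27, adjusted p = 0.0046, edgeR). It was called lower in cells with Y-linked transcripts than in those with Xist (log2 change -0.20, adjusted p = 0.036, edgeR). Run 2 went the other way in both comparisons. The log2 ratios of runs 1, 2 and 3 were 0.43, -0.14 and 0.43 in interferon-responsive cells. In the sex-linked comparison they were -0.36, 0.11 and -0.34.

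Ordinary microglia with Y-linked transcripts (2197, 1281 and 1495 cells) were also set against those with Xist (2527, 3367 and 2312 cells). Trem2 differed by 0.02 (log2, Y-linked minus Xist, 95% interval -0.07 to 0.11) and Tyrobp by 0.00 (-0.09 to 0.09). The intervals of Cd33, Inpp5d, Syk, Plcg2 and Hcst all lay between -0.26 and 0.20. Animals of the same sex cannot be told apart within a run.

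The genes whose mean levels followed each member most closely over the 9 populations were named by a fixed rule, among 8088 genes. For Trem2 these were Derl1 (Pearson's r 0.985), Tcirg1 (0.981) and Spcs2 (0.971), for Tyrobp Slc6a6 (0.977), Eef1e1 (0.968) and Rragc (0.949), and for Cd33 Gpr146 (0.971), Hpgds (0.970) and Trib1 (0.969). Inpp5d was followed by Rbm5 (0.985), Tjp1 (0.983) and Slc2a5 (0.982). The lists of the scarcer genes were Exoc7, Spopl and Nfs1 for Syk, Slco4a1, Tnrc6a and Clcf1 for Plcg2, and Ttc5, Grcc10 and Sphk2 for Hcst, with r between 0.919 and 0.990. The 9 points come from the same 3 libraries, share their depth, and number far fewer than the genes searched, so these values are descriptions.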

How the data were processed

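Single-cell RNA was measured in 3 runs of tdTomato+ hippocampal cells. The authors deposited raw counts of UMIs per gene and barcode, made with counting software of version 3.0.2 for run 1 and 3.1.0 for runs 2 and 3, per the file headers. The submitters' processing notes name Cell Ranger, Seurat 4.0 and mm10; the annotation, strand setting and barcode selection are not given in the sources used here. Run totals were 34140879, 24717907 and 24225612 UMIs. Cells needed 1000 UMIs, 500 genes and no more than 10% mitochondrial UMIs.

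Each cell was gated on marker genes (19 gates, at least 3 markers for most), with the MHC class II gate open only to cells outside the border macrophage gate and the chemokine gate only to cells outside the lipid and phagocyte gate; cells of several gates after that were left out. UMIs were summed per run and population, and populations with at least 10 cells in each run were compared with ordinary microglia by edgeR 4.0.16 (glmQLFit and glmQLFTest, TMM scaling, filterByExpr, run as a block, R 4.3.3), with Benjamini-Hochberg adjustment over all genes except gate markers at a threshold of 0.05. In the 8 population comparisons the spread was shared across genes (infinite prior degrees of freedom). A gene's own spread between runs did not enter its p-value there. In the sex-linked comparison the prior had 62.7 degrees of freedom. Both sums of a run come from 1 library, and across genes the runs' departures from each population's mean had correlations between 0.12 and 0.35 for the populations and between 0.68 and 0.77 for the sex-linked comparison, so the run pairs them. Standard errors were taken as the log2 change over the square root of F. CPM were taken from the summed UMIs, without scaling factors, and counting intervals and floors cover counting error only. For shares, cells were thinned at random to 2000 UMIs.

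Members, gates, lists and tests were chosen with earlier results of these data known. Members are all named. Of the other lists, the text names up to 4 genes per list, comparison and direction with the largest change among those called and at 5 CPM or more in the higher population; genes likest to a member had 20 CPM or more in at least 1 population, and no gate markers, members, ribosomal, mitochondrial or unnamed genes were taken. Some list genes are not reported here. Gene IDs were matched to GENCODE M21 (30934 of 31053, 99.62%), and promoters came from RefSeq (7 of 8 members matched). A planned comparison of cells with and without Clec7a could not be run because the gene had no row. Alternatives were other scalings, the DESeq2 1.42.0 Wald test, no filter on low counts, no block, each run left out, a stricter cell filter (2000 UMIs, 5% mitochondrial), stricter gates, thinned cells, cells of several gates kept, leaving out cells that held Xist beside Y-linked UMIs, fewer microglia markers in border macrophages, and a reference matched on UMIs (5 cells for each). The test script was tested on simulated data, with changes put into scarce and abundant genes alike. Of changes of 1 on the log2 scale it called 9.26% for MHC class II-high cells and 11.3% for the Emp3 group. It called 61.5% for astrocyte transcripts and 89.9% for the sex-linked comparison. False calls made up between 0% (cycling) and 8.09% (interferon) of the calls. A gene that did not pass is thus not shown to be unchanged.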

Additional observations from a re-analysis of the deposited data

Results flagged for a closer look

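Barcodes that did not pass the cell filters (262, 175 and 148 in runs 1, 2 and 3) were used in no comparison, and all 7 measured genes had UMIs there, above the limit that a count of 0 allows. Pooled over the runs, Trem2 was at 755.2 CPM, Tyrobp at 1109, Cd33 at 196.1, Inpp5d at 310.3, Syk at 32.32, Plcg2 at 29.09 and Hcst at 23.7 CPM. Each pooled value, to which run 1 gave 593174 of the UMIs counted, was below the level in ordinary microglia. By run, this did not hold for Inpp5d in run 2 (486 against 424 CPM) and Plcg2 in run 3 (72.5 against 71.1 CPM). Trem2 was at 678, 944 and 830.0 CPM and Inpp5d at 201, 486 and 527 CPM in runs 1, 2 and 3.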

How the results depend on the processing

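Over the members' changes, 734 values under an alternative kept their side of the threshold (and, where called, their direction), 47 lost a call, 7 gained one and 0 reversed; where neither value was called, the sign was not compared. For the other list genes the counts were 643 kept, 164 lost and 1 reversed: Apoe in cycling cells went from -1.48 to 0.19 with cells of several gates kept. Counts of genes called moved more. For border macrophages (1013) they were 633 with the DESeq2 Wald test, 664 with no replicate block, 1580 with cells of several gates kept, and 295 (without run 3) to 1044 with 1 run left out. For MHC class II-high cells (786) they were 488 with DESeq2, 1896 with several gates kept and 383 to 700.0 with 1 run left out. For lipid and phagocyte cells (1484) they were 838 with DESeq2, 558 with no replicate block and 896 to 1138 with 1 run left out. For chemokine-high cells (679) they were 425 with DESeq2, 186 with no replicate block, 262 on thinned cells and 331 to 548 with 1 run left out. For interferon cells (209) they were 104 with no replicate block, 119 on thinned cells, 1417 with several gates kept and 137 to 190 with 1 run left out. For cycling cells (1862) they were 1082 with DESeq2, 1213 against the matched reference and 985 to 1520 with 1 run left out. For the Emp3 group (70) they were 106 with no scaling factors, 35 with no filter on low counts, 11 with no replicate block, 26 with the stricter cell filter, 39 without cells of both sex-linked kinds and 12 to 61 with 1 run left out; with DESeq2's size factors the split went from 44 higher and 26 lower to 81 and 14. For astrocyte transcripts (83) they were 43 with no replicate block, 46 with the stricter filter, 175 with several gates kept, 39 against the matched reference and 22 to 75 with 1 run left out. For the sex-linked comparison (99) they were 15 with DESeq2, 0 with no replicate block (edgeR; 68 at an unadjusted p under 0.05), 64 with the stricter filter, 24 on thinned cells and 51 to 90 with 1 run left out. The cause of these moves was not tested. Without the replicate block the members' calls of Trem2 and Tyrobp in lipid and phagocyte cells, of Inpp5d in border macrophages and cycling cells, of both members in chemokine-high cells and of all 4 in MHC class II-high cells were lost, and no other member's call changed. Levels in ordinary microglia moved by less than the spread between runs under every alternative run. DESeq2's size factors moved the median of all genes by 0.13 in MHC class II-high cells and 0.11 in the Emp3 group, and no scaling factors by -0.11 and, in cycling cells, 0.21. Not run for want of 10 cells in a run were 1 more marker in the gates of MHC class II-high, lipid and phagocyte, cycling and astrocyte-transcript cells, thinned cells for the lipid and phagocyte, cycling, Emp3 and astrocyte-transcript groups, and the stricter filter for cycling cells; the Emp3 gate already needs all its markers. Without run 3, Syk of MHC class II-high cells had no UMI and its fold is not used.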

Other observations

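T cells, most of which use neither Trem2 nor Tyrobp, gave a check on the gates: 7 cells held 14 Hcst and 2 Inpp5d UMIs and no UMI of Trem2, Tyrobp, Cd33, Syk or Plcg2. In their 17471 UMIs a count of 0 allows up to 211 CPM. Ordinary microglia had Syk at 86.5 and Plcg2 at 74.0 CPM, below that limit, so the zeros of Syk and Plcg2 check nothing. Hcst was at 801 CPM in the T cells (exact 95% Poisson interval 438 to 1344, counting error only) against 46.7 CPM in ordinary microglia. In the single NK cell, a cell type in which TYROBP and HCST carry activating receptors, 16 UMIs of Tyrobp, 3 of Hcst and 0 of Trem2 were counted. The 33 choroid plexus cells held Trem2 at 710 CPM and Tyrobp at 759 CPM, with Trem2 at 1075, 406 and 0 CPM in runs 1, 2 and 3. Before thinning, 33.3% and 18.8% of these cells had a Trem2 UMI in runs 1 and 2, and their microglia markers summed to 11605, 4003 and 942 CPM.

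Microglia with immediate early transcripts numbered 2, 3 and 248 cells, so that only run 3 gave a level. There Trem2 was at 2610.2 CPM, Tyrobp at 2426, Cd33 at 337, Inpp5d at 532, Syk at 98.6, Plcg2 at 59.0 and Hcst at 50.2 CPM, in a single library and with no test. In ordinary microglia of the same run they were at 2586, 2642, 418, 580.1, 102, 71.1 and 48.4 CPM.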
